A study of Mus musculus with 16 samples.

Results

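Heat shock chaperones were followed in mouse liver as 10 genes taken by name: Hspa1a, Hspa1b, Hsph1, Dnajb1, Hsp90aa1, Hspa8, Hspb1, Hspe1, Hspd1 and the transcription factor gene Hsf1. They are 10 of the 78317 genes in the deposited tables, and all 10 passed the filter on low counts that left 14781 genes for testing. The members were chosen by gene name with results of these libraries in view, so they count as selected on their measured levels, and the contrast and threshold behind the choice are not recorded. The levels and changes of the 10 genes are therefore a description with no test, and an adjusted p is printed for a member only where an alternative fit ends its call.

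The livers came from wild-type C57BL/6J mice, an inbred laboratory strain, in 4 groups with 4 libraries each: females and males on a normal diet, and females and males on a high fat diet. The normal diet drew 4.5% of its calories from fat and the high fat diet 60%. The mice were 6 weeks old when they arrived and were fed for 10 weeks, and the feeds came from different makers, so fat may not be their sole difference. The labels number the replicates without naming the mouse behind each, so the spread and the p-values are those between these libraries, and the hour of collection is not given in the sources used here.

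Library totals ran from 22228115 to 41420589 expected counts. Summed hepatocyte markers exceeded those of each of the other cell type lists in all 4 groups. The sums were lower on the high fat diet without overlap (65926 to 81237 against 88271 to 101117 CPM in males, 84240 to 101266 against 106875 to 120730 CPM in females). Of the 6 markers, 1 was called lower by diet in each sex, against 5.76% of all genes in females and 5.36% in males. Their median log2 fold changes were -0.14 in females and -0.25 in males. Albumin weighs heavily in the sum. Its unscaled share of counts overlapped in females (7.39% to 8.75% on the high fat diet, 8.40% to 9.17% on the normal diet) but not in males. The 4 stellate cell markers summed to 367 to 392 CPM in females and 239.6 to 283 CPM in males on the normal diet, and the 5 Kupffer cell markers summed to 367 to 544 CPM in females on the high fat diet against 222 to 328 on the normal diet. In bulk tissue, fewer cells of a type and less RNA per cell cannot be told apart. Male high fat diet replicates 2 and 3 were nearly alike, with a chi-square of 4.07 per gene against 20.8 to 307.9 for every other pair within a group. They still differed by more than sampling noise, but this does not settle whether they came from the same mouse, which the labels do not say. They were counted as 2 libraries, and counts of diet calls in males are also given without them. The 4 pancreatic acinar markers summed to 18.8 and 7.52 CPM in these 2 libraries, to 4.00 CPM in female normal diet replicate 4 and to at most 0.780 CPM in the other 13. The part of these cell types in the results was not tested.

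Chaperones bind unfolded or partly folded proteins and help them to reach or keep their shape, and many were found as proteins that cells make after heat. Heat shock factor 1, the product of Hsf1, is held inactive by chaperones in unstressed cells and, once freed, binds heat shock elements in front of chaperone genes. In mouse liver, several of these transcripts also follow the daily rhythm of body temperature, while the cold-inducible RNA-binding proteins Cirbp and Rbm3 run in the opposite phase.

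A heat shock element is built from 5-base units that read nGAAn or nTTCn in turn. RefSeq promoter windows on GRCm38.p6, which run from 250 bases before to 50 bases after a transcript start, were searched on both strands for a pair of units (GAANNTTC or TTCNNGAA) and for 3 units (GAANNTTCNNGAA or TTCNNGAANNTTC). Matches may overlap, and each run of 3 units also holds pairs. Of the members, 7 had a window (no entry was matched for Hsp90aa1, Hspa8 and Hsf1), and 6 of these held a pair in at least 1 window. By windows, 7 of the 10 of the members held a pair, which 15.1% of all 32851 windows hold. Runs of 3 units lay in the windows of Hsph1, Hspe1 and Hspd1, in 4 of the 10 windows, and 0.603% of all windows hold one. Both Hsph1 windows overlap and hold the same run, so the windows of the members are not independent. The windows below show the inducible Hspa1b, Hsph1 with its run after the start, the start region of Hspe1, Dnajb1, whose windows hold no match, and Chordc1, an HSP90 co-chaperone picked after its values were seen. Capitals mark the matches.
Hspa1b, chr17:34959189-34959488, minus strand: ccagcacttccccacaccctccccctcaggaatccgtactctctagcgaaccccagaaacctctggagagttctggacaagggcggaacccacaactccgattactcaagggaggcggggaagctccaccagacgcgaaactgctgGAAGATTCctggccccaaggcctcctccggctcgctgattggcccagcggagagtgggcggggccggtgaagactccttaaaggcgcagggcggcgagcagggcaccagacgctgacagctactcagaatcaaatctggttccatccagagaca
Hsph1, chr5:149636287-149636586, minus strand: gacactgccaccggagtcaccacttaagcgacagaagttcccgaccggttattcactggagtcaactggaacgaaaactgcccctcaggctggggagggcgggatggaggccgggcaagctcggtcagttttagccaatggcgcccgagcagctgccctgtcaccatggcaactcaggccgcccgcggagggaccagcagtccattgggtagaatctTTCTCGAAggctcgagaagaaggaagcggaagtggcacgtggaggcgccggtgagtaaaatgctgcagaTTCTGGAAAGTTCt
Hspe1, chr1:55087898-55088197, plus strand: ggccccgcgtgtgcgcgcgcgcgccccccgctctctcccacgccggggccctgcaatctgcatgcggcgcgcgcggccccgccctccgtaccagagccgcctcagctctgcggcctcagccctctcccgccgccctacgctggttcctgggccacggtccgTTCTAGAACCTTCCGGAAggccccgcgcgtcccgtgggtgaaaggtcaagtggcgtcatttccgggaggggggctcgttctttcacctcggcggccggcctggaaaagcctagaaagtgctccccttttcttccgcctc
Dnajb1, chr8:83607925-83608224, plus strand: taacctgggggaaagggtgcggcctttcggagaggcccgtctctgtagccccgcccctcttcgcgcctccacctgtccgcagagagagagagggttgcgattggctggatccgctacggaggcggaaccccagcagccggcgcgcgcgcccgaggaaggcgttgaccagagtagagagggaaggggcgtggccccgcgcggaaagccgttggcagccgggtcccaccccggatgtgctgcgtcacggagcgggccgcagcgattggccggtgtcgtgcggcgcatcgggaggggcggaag
Chordc1, chr9:18292017-18292316, plus strand: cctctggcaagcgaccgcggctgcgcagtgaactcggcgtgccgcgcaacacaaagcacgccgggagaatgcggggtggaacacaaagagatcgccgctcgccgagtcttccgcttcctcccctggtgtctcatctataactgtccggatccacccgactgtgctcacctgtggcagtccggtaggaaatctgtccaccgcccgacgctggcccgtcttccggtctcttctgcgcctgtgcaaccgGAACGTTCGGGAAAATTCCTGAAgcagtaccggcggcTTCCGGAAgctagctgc
The match of Hspa1b lay 104 to 97 bases before the start, and the Hspa1a window differed from it at 4 of its 300 bases. Hspe1 and Hspd1 are neighbours that are read in opposite directions, so their windows share 1 element with 2 overlapping runs of 3 units. Chordc1 held 3 runs of 3 units and 5 pairs at its start. A match describes these letters and is no evidence that the factor binds there.

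The heat-inducible HSP70 genes had the largest differences among the members. Hspa1b encodes an HSP70 that is scarce in unstressed cells and builds up under stress. Its level was 52.1, 59.3, 80.4 and 182 CPM in normal diet males (replicates 1 to 4, CPM, counts scaled to the effective library size) and 8.36, 6.86, 6.84 and 14.3 CPM in males on the high fat diet. The male groups did not overlap, replicate 4 was the highest library of each, and the level on the high fat diet was 10.3-fold lower (log2 fold change -3.37 ± 0.42, SE, n = 4 per group). In females Hspa1b stood at 12.0, 12.6, 13.3 and 10.4 CPM on the normal diet and 7.19, 6.78, 7.82 and 2.94 CPM on the high fat diet. Those groups did not overlap either, and the fitted change was -0.96 ± 0.41 on the log2 scale. Every female library lay below 14.3 CPM, the highest male high fat diet library, and the 4 males on the normal diet lay above all other libraries. All females on the normal diet lay above the remaining male high fat diet libraries (6.84 to 8.36 CPM).

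Hspa1a is a near-identical copy of Hspa1b, so the split of reads between them is uncertain. It was measured at 5.27, 5.17, 7.39 and 14.9 CPM in normal diet males and at 0.520, 0.883, 0.687 and 1.64 CPM in males on the high fat diet. The log2 fold change was -3.16 ± 0.51 in males. Female values ran from 0.334 to 1.39 CPM on the normal diet and from 0.157 to 0.846 CPM on the high fat diet, with overlap and a change of -0.62 ± 0.57. With both copies summed, which removes the question of the split, the change was -3.35 ± 0.43 in males and -0.93 ± 0.41 in females. Hspa1b took 88.4% to 97.2% of the summed level in every library. Hspa1a also overlaps Gm20481, on the other strand, in the GENCODE M21 annotation, and whether counting used the strand is not given in the sources used here.

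Hsph1, an HSP110 that exchanges the nucleotide of HSP70 so that its client is released, followed the same order of groups in males. Males on the normal diet had 125, 146, 188 and 277 CPM, and males on the high fat diet had 42.0, 33.9, 33.5 and 45.2 CPM. No library of one male group reached the other, and the high fat diet level was 4.76-fold lower (log2 fold change -2.25 ± 0.24). Females had 75.6, 78.3, 74.7 and 84.9 CPM on the normal diet and 62.5, 59.8, 79.4 and 35.2 CPM on the high fat diet. These overlapped, and the change was -0.40 ± 0.23. Replicate 4 of the female high fat diet group was the lowest of its group for Hsph1 and for 6 of the other 9 members, all but Hspe1, Hspd1 and Hsf1.

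Dnajb1, an HSP40 that hands unfolded clients to HSP70 and sets off its ATP hydrolysis, was lower on the high fat diet in both sexes, without overlap in either. Male libraries had 43.6, 40.5, 49.3 and 65.8 CPM on the normal diet and 15.5, 14.5, 15.0 and 16.9 CPM on the high fat diet, a change of -1.69 ± 0.17. Female libraries had 35.2, 30.8, 31.2 and 24.8 CPM on the normal diet and 18.2, 21.1, 21.9 and 12.9 CPM on the high fat diet, a change of -0.72 ± 0.17. The 4 male high fat diet libraries had the smallest spread of this gene (SD 1.04 CPM).

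Hsp90aa1 encodes the inducible cytosolic HSP90, which matures kinases and steroid receptors. Male libraries had 381, 423, 564 and 799.5 CPM on the normal diet and 309, 210.2, 212 and 295 CPM on the high fat diet (-1.08 ± 0.22). Female libraries had 251, 241.1, 252 and 271 CPM on the normal diet and 205, 190.1, 240.7 and 121 CPM on the high fat diet (-0.42 ± 0.22). The female groups were separated only by the gap between 240.7 and 241.1 CPM, and the male ones by the gap between 309 and 381 CPM.

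**Figure D1:**
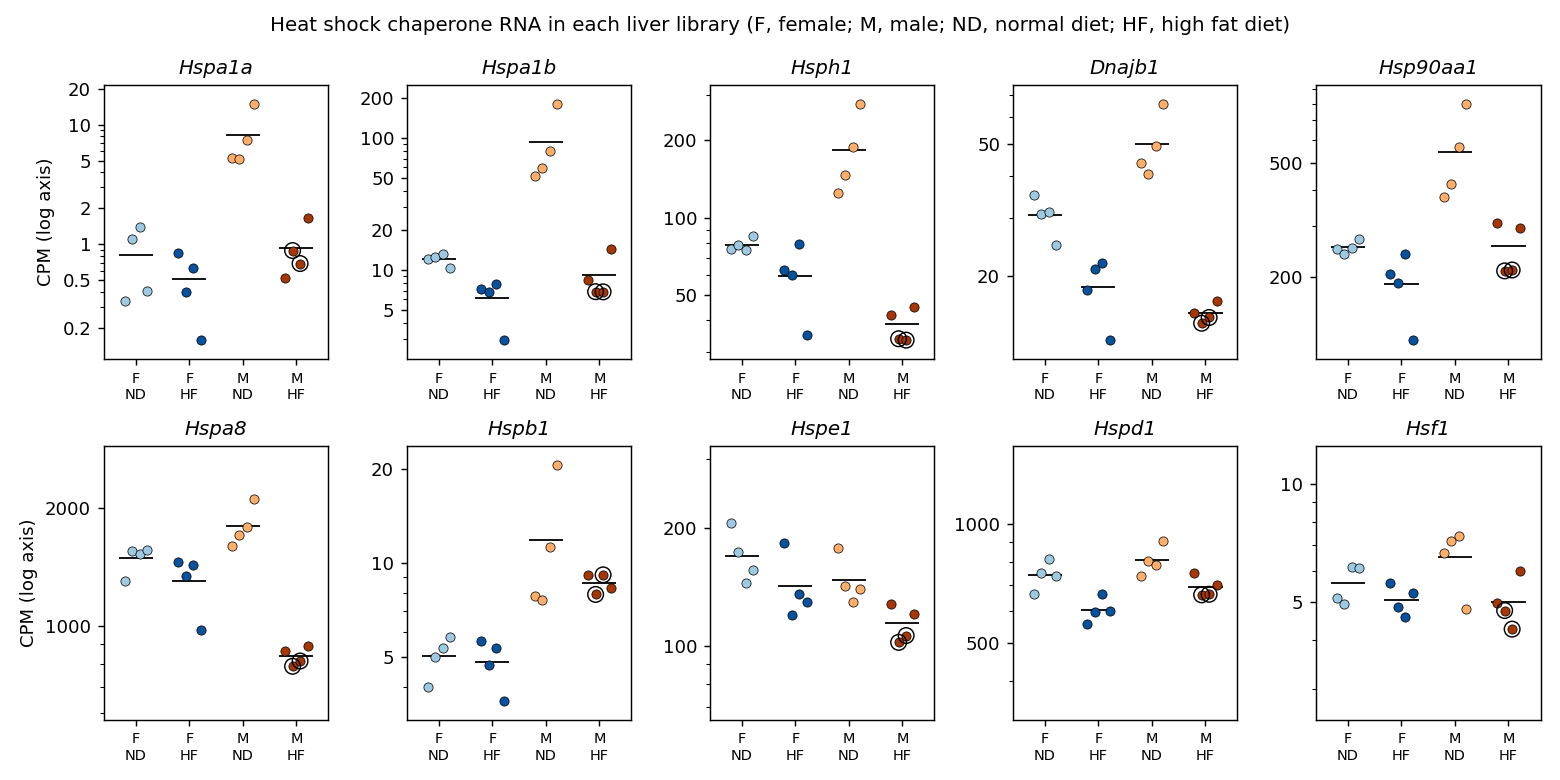
Level of each member in CPM (log axis, own scale per gene) in the 16 libraries, with points in replicate order from left to right, a bar at the group mean and rings around the nearly alike male high fat diet replicates 2 and 3. Males on the normal diet stand highest for Hspa1a, Hspa1b, Hsph1, Dnajb1, Hsp90aa1 and Hspa8, and replicate 4 of that group is the top point of each of these 6.

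Hspa8 encodes the constitutive HSP70 of the cytosol, which folds new proteins and strips clathrin from vesicles. Male libraries held 1597, 1707, 1792 and 2105 CPM on the normal diet and 863, 789.9, 815 and 890.3 CPM on the high fat diet, which is 2.14-fold lower (log2 fold change -1.10 ± 0.13). Female libraries held 1305, 1555, 1524 and 1566 CPM on the normal diet and 1459.7, 1344, 1429 and 979 CPM on the high fat diet (-0.19 ± 0.13, and 0.04 on TPM). All 4 male high fat diet libraries were below every other library, the females on the high fat diet included. In the annotation Hspa8 contains the small nucleolar RNA genes Snord14c, Snord14d and Snord14e on its own strand.

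Hspb1, a small heat shock protein that holds unfolded clients without ATP, separated by sex and overlapped by diet. Females had 4.00, 4.997, 5.34 and 5.78 CPM on the normal diet and 5.62, 4.70, 5.35 and 3.61 CPM on the high fat diet, a change of -0.06 ± 0.26 that turned to 0.13 by library totals. Males had 7.82, 7.59, 11.2 and 20.6 CPM on the normal diet and 9.14, 7.91, 9.14 and 8.32 CPM on the high fat diet, a change of -0.46 ± 0.25. Every male library lay above every female one.

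The mitochondrial chaperonin showed smaller differences than the inducible genes. Hspe1 encodes its lid and Hspd1 its barrel, in which matrix proteins fold. Hspe1 was at 177, 142, 129.6 and 139 CPM in normal diet males and 128, 102, 106 and 120.4 CPM on the high fat diet (-0.37 ± 0.14, no overlap). Hspd1 was at 737, 807, 789 and 907 CPM and at 751, 662, 664 and 700.0 CPM in the same groups (-0.22 ± 0.11). In females the changes were -0.26 ± 0.14 for Hspe1 and -0.30 ± 0.11 for Hspd1, and both overlapped. The exons of these neighbours overlap on opposite strands, and Hspd1, Hspe1 and Hspa8 have many pseudogene copies, so their counts can hold shared reads.

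Hsf1, the factor itself, was weakly expressed and its groups overlapped. In males its level ran from 4.79 to 7.35 CPM with normal feeding and from 4.26 to 5.98 CPM with high fat feeding (-0.38 ± 0.16), and the female change was -0.14 ± 0.16, which turned to 0.05 by library totals. Male normal diet replicate 4, the highest library for Hspa1b, was the lowest of its group for Hsf1. The Hsf1 transcript does not measure the activity of the factor, which is set on the protein.

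On TPM, which divides by transcript length and so allows genes to be compared, the order of levels in males on the normal diet was Hspa8 (992 ± 132, SD, n = 4), Hspd1 (425 ± 46.7), Hspe1 (349 ± 32.5), Hsp90aa1 (212 ± 72.8), Hsph1 (58.8 ± 21.7), Hspa1b (41.6 ± 26.5), Hspb1 (22.1 ± 11.5), Dnajb1 (20.5 ± 4.64), Hsf1 (4.09 ± 0.830) and Hspa1a (3.42 ± 1.90). Neighbours whose intervals of mean ± SD overlapped were Hspd1 with Hspe1, Hsph1 with Hspa1b, Hspa1b with Hspb1, Hspb1 with Dnajb1, and Hsf1 with Hspa1a. Among males on the high fat diet Hspb1 (16.9 ± 1.16) stood above Hsph1 (13.1 ± 2.36), Dnajb1 (6.75 ± 0.588) and Hspa1b (4.30 ± 1.79). Hspa8 (487 ± 34.1) was first there, ahead of Hspd1 (384 ± 26.9). In females Hspa8 was also first (825 ± 96.7 TPM on the normal and 851 ± 131 TPM on the high fat diet), while Hspe1 (405 ± 42.9 and 398 ± 78.4) and Hspd1 (393 ± 57.1 and 377 ± 23.1) overlapped. Hspa1a was last in all 4 groups.

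Counted over the 10 members, 6 were called lower on the high fat diet in males at an adjusted p under 0.05 (edgeR quasi-likelihood test, Benjamini-Hochberg over all genes tested): Hspa1a, Hspa1b, Hsph1, Dnajb1, Hsp90aa1 and Hspa8. Of all tested genes, 11.4% were called in males, and 5.36% were called lower. In females 1 member was called, Dnajb1, also lower, against 11.5% of all genes called and 5.76% called lower. The male groups did not overlap, with the high fat diet below, for 7 members against 9.13% of all genes, and the female groups for 3 members against 9.55%. The median log2 fold change of the members was -1.09 in males and -0.35 in females, and over all tested genes it was 0.01 and 0.00. Since the members were chosen with results known, these counts are given beside the shares of all genes and nothing is read from them. Without male high fat diet replicates 2 and 3, Hsp90aa1 was not called in males (-0.84, adjusted p = 0.0698). Without male normal diet replicate 4, Hsf1 was also called (-0.50).

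**Figure D2:**
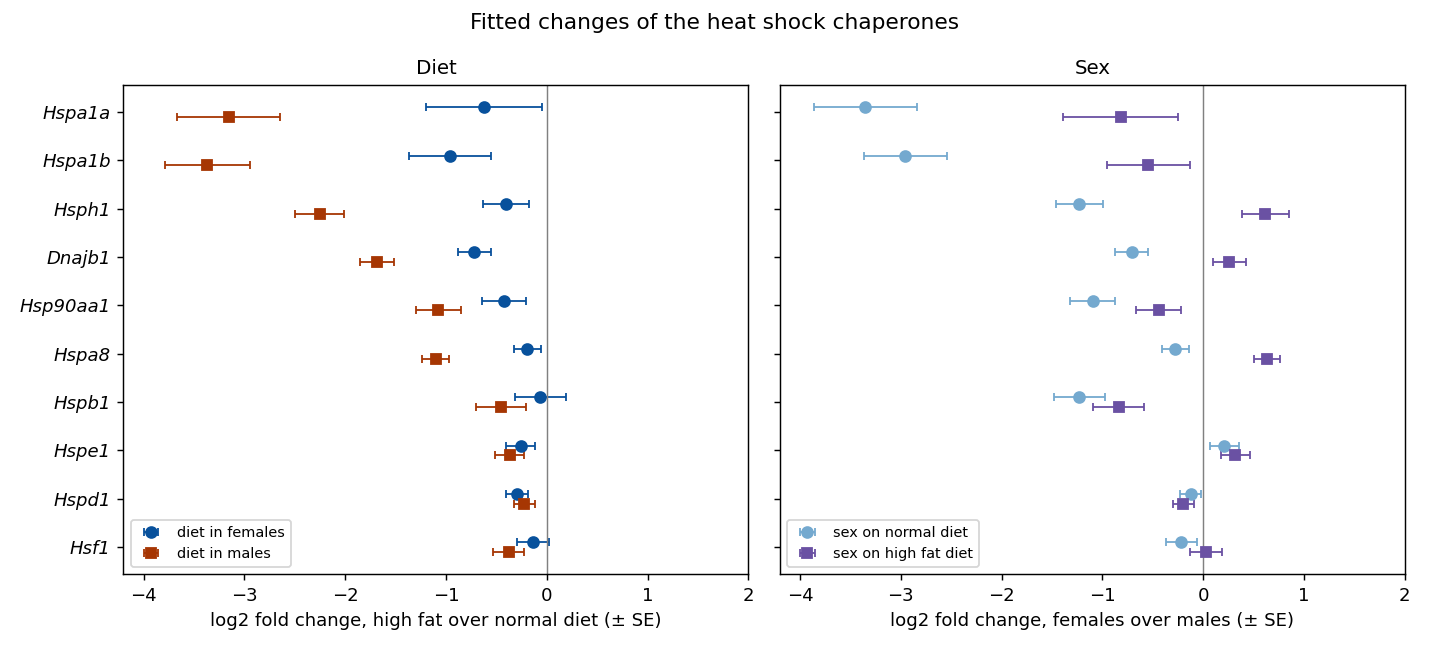
Fitted log2 fold changes of the 10 members (points, with bars of 1 SE), for high fat over normal diet in each sex on the left and for females over males on each diet on the right. The male diet changes of Hspa1b (-3.37) and Hspa1a (-3.16) lie farthest from 0, and the values of females over males on the normal diet for the same genes (-2.95 and -3.35) are of like size.

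The diet changes of the sexes were also set against each other, as the female change minus the male change. Hsph1 (1.85 ± 0.33) and Hspa8 (0.91 ± 0.19) were the 2 members called, both with the larger drop in males. The call was lost under 2 of 26 alternatives for Hsph1 and 10 of 26 for Hspa8 (adjusted p up to 0.0592 and 0.0674). In this comparison 0.677% of all genes were called and 0.264% were called higher. Hspa1a (2.53 ± 0.77), Hspa1b (2.41 ± 0.57), Dnajb1 (0.97 ± 0.23) and Hsp90aa1 (0.65 ± 0.31) had differences of the same sign that missed the threshold in edgeR, and Hspa1a, Hspa1b and Dnajb1 passed it under 2 of 25, 5 of 26 and 7 of 26 alternatives. DESeq2 called 5 members, and so did limma on log2(TPM + 1). For Hspe1 (0.11 ± 0.20), Hspd1 (-0.07 ± 0.15), Hsf1 (0.24 ± 0.22) and Hspb1 (0.39 ± 0.36) the difference was close to its SE or smaller. With the nearly alike male libraries averaged 1 member was called, and without them 0 (Hsph1 1.68, adjusted p = 0.0592). Leaving out 1 library gave between 1 and 4 members. The count of 1 arose without female normal diet replicate 1 or 4, female high fat diet replicate 1, male normal diet replicate 3 or male high fat diet replicate 2 or 3, and that of 4 without female high fat diet replicate 4.

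On the normal diet, females had less of 6 members than males: Hspa1a (-3.35 ± 0.51, log2 of females over males), Hspa1b (-2.95 ± 0.41), Hsph1 (-1.23 ± 0.23), Hspb1 (-1.23 ± 0.25), Hsp90aa1 (-1.09 ± 0.22) and Dnajb1 (-0.71 ± 0.16). All 6 were called, where 15.7% of all genes were called between the sexes and 8.68% were called lower in females. The groups did not overlap for these 6 or for Hspa8 (-0.28 ± 0.13), against 12.2% of all genes. Hspe1 was the member with a positive value (0.21 ± 0.14). On the high fat diet, Hspa8 was called higher in females (0.63 ± 0.13) and Hspb1 lower (-0.84 ± 0.25), where 20.4% of all genes were called. For Hspa1b the difference was -0.54 ± 0.41 on that diet, with overlapping groups. The comparisons of diet and of sex share the male normal diet libraries, in which the inducible members were highest. With library totals in place of TMM scaling, 3 members were called between the sexes on the high fat diet, all higher in females. The call of Hspb1 was lost under 10 of 19 alternatives. Among them were the fits without female high fat diet replicate 2 or 4 or male high fat diet replicate 1, 3 or 4. Those gave adjusted p from 0.0547 to 0.0871, and the fit without male high fat diet replicates 2 and 3 gave 0.0796.

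The partners of the members were taken from 9 lists of other chaperones and co-chaperones, with 70 genes of which 68 were tested. Like the members, these and the other gene lists below were chosen with earlier results of these data known. Their counts, shares and adjusted p are therefore a description, and nothing is read from a share that differs from that of all genes. In males on the high fat diet 22 of the 68 fell (32.4%, against 5.36% of all genes) and 1 rose, and their median log2 fold change was -0.29. In females 11 fell (16.2%, against 5.76% of all genes) and 0 rose, with a median of -0.21. Over all tested genes the medians were 0.01 in males and 0.00 in females. The count of 22 rests in part on single libraries: 23 genes were called in all, 15 without male normal diet replicate 4, 12 without male high fat diet replicate 2, and 10 without male high fat diet replicates 2 and 3. With library totals in place of TMM scaling the male split was 1 higher and 12 lower. The female split depended on scaling, since library totals moved the median of all genes by 0.19, with 3 higher and 3 lower by library totals and 4 higher and 3 lower on TPM. It also depended on single libraries, with 3 called without female normal diet replicate 2, 4 without female high fat diet replicate 4, 5 without female normal diet replicate 1, 6 without female normal diet replicate 4 and 7 without female high fat diet replicate 3.

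Of HSP90 and its co-chaperones, 7 of 8 fell in males and 1 of 8 fell in females, and without male high fat diet replicates 2 and 3 the male count was 3. Chordc1, which binds HSP90, was at 76.2, 82.2, 98.7 and 103 CPM in normal diet males and 42.0, 45.0, 40.7 and 46.4 CPM on the high fat diet. The 2.07-fold fall in males (log2 fold change -1.05 ± 0.15, edgeR adjusted p = 0.000214) stood beside one of -0.51 ± 0.14 in females (adjusted p = 0.0299). The difference between the sexes was not called for Chordc1, and its female call was lost under 9 of 18 alternatives. Stip1, which bridges HSP70 and HSP90, fell in males from 91.4 ± 13.1 to 47.1 ± 3.75 CPM (SD, n = 4; -0.96 ± 0.14, edgeR adjusted p = 0.000282). Hsp90ab1, the constitutive HSP90, fell there from 1272 ± 197 to 789.7 ± 21.7 CPM (-0.69 ± 0.12, edgeR adjusted p = 0.00118), and in females it averaged 954 ± 82.4 CPM on the normal and 955 ± 73.8 CPM on the high fat diet.

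Among the partners of HSP70, Bag3, a nucleotide exchange factor that leads clients to autophagy, fell 3.06-fold in males (-1.61 ± 0.21, edgeR adjusted p = 0.000170), from 52.2, 44.6, 68.7 and 102 CPM to 25.6, 18.1, 19.7 and 24.2 CPM. Bag2, another exchange factor, also fell (-0.86 ± 0.27, edgeR adjusted p = 0.0440), a call that was lost under 12 of 19 alternatives (up to 0.221). These were 2 of 7 HSP70 co-chaperones in males (1 without male high fat diet replicates 2 and 3), with 0 of 7 called in females by edgeR (1 at an unadjusted p under 0.05, and 1 by DESeq2). Among 9 J-domain proteins of the cytosol and nucleus, the relatives of Dnajb1, 4 fell in males (3 without those libraries) and 5 in females. Dnajb4 fell in both (-0.80 ± 0.12 in males and -0.60 ± 0.12 in females, edgeR adjusted p = 0.000468 and 0.00440). Dnaja4 (-0.97 ± 0.17) and Dnaja1 (-0.82 ± 0.15) led with it in males. Dnajb6, which keeps aggregating proteins apart, fell in females from 157 ± 4.19 to 101 ± 14.8 CPM (-0.64 ± 0.10, edgeR adjusted p = 0.00101).

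Hspa2, an HSP70 best known from the testis, was the other HSP70 gene that fell and it was called in both sexes. Its CPM were 3.45, 3.68, 3.15 and 2.81 in females on the normal diet and 1.45, 1.52, 1.61 and 1.45 on the high fat diet. Males had 3.99, 2.80, 2.46 and 2.79 CPM on the normal diet and 1.34, 1.29, 1.27 and 1.68 CPM on the high fat diet. The log2 fold change was -1.11 ± 0.19 in each sex (edgeR adjusted p = 0.00112 in females and 0.00116 in males), and the SE of the difference between the sexes was 0.28. It was 1 of 8 genes of its list called in each.

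The cytosolic chaperonin, a ring of 8 subunits that folds actin and tubulin, had small changes in most of its subunits in males. There 7 of 8 fell, led by Cct7 (-0.49 ± 0.10, edgeR adjusted p = 0.00497), Tcp1 (-0.37 ± 0.09) and Cct4 (-0.38 ± 0.09). In females Cct6a (-0.31 ± 0.10) and Cct2 (-0.29 ± 0.09) were called, 2 of 8, and the calls were lost under 14 and 11 of 18 alternatives, with adjusted p up to 0.592 and 0.737. Without male high fat diet replicates 2 and 3, 1 of 8 was called in males, and the adjusted p of Cct7 was 0.0620 and that of Tcp1 0.0972.

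Of 14 chaperones of the endoplasmic reticulum, where secreted proteins fold, edgeR called 0 by diet in either sex, with medians of -0.44 in males and -0.22 in females. At an unadjusted p under 0.05 there were 4 in males and 2 in females, and DESeq2 called 1 in males and 0 in females. Among 8 mitochondrial chaperones and proteases, Clpx rose in males (1.23 ± 0.14, edgeR adjusted p = 4.02e-05). Clpx, the unfoldase of a matrix protease, stood at 76.2, 82.8, 103 and 96.6 CPM in normal diet males and at 183, 231, 236 and 191 CPM on the high fat diet. Its female values were 82.6, 117, 92.4 and 108 CPM on the normal diet and 108, 120.2, 132 and 97.2 CPM on the high fat diet, and the difference between the sexes was called (-1.03 ± 0.19, edgeR adjusted p = 0.0155). That call was lost without female normal diet replicate 2 (adjusted p = 0.0518) and without male high fat diet replicates 2 and 3 (0.0521), and also on TPM (up to 0.0575). Dnaja3 (-0.42 ± 0.10) and Grpel1 (-0.45 ± 0.12), co-chaperones of the mitochondrial HSP70, fell in females, with calls lost under 6 and 8 of 18 alternatives (adjusted p up to 0.196 and 0.166). Hsf2, 1 of 3 other genes of the heat shock factor list, fell in males (-0.48 ± 0.15, edgeR adjusted p = 0.0423), a call that was lost under 11 of 19 alternatives. Of 3 tested small heat shock proteins other than Hspb1, edgeR and DESeq2 called 0 by diet in either sex, with 1 at an unadjusted p under 0.05 in females and 0 in males.

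**Figure D3:**
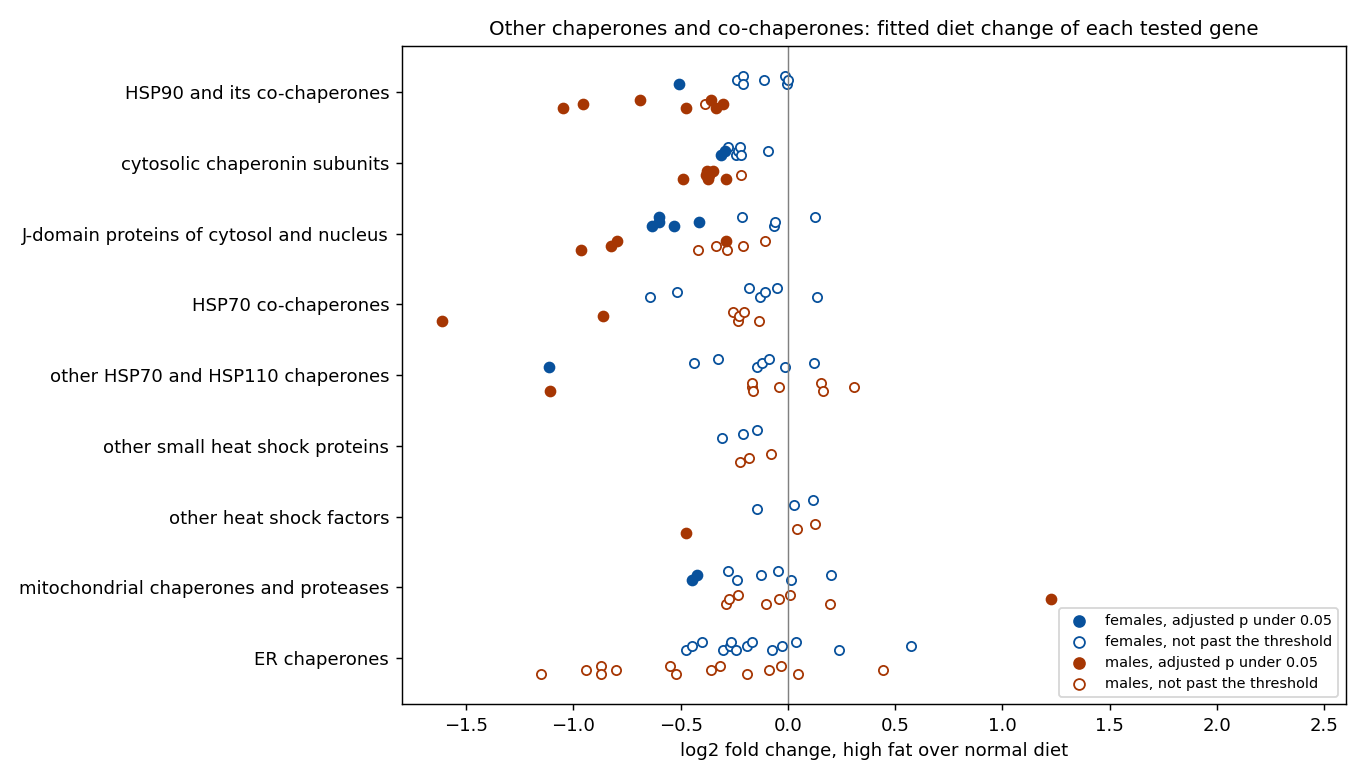
Fitted log2 fold change of high fat over normal diet for each of the 68 tested chaperones and co-chaperones outside the 10 members, by list and sex. Filled points passed an adjusted p of 0.05 and open points did not. The filled male points of HSP90 and its co-chaperones (7 of 8) and of the cytosolic chaperonin (7 of 8) all lie left of 0, and Clpx is the filled point on the right at 1.23.

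Between the sexes on the normal diet, 11 of the 68 other chaperones were called, all lower in females, which is 16.2% against 15.7% of all genes called and 8.68% called lower. Of the 11, 7 were chaperones of the endoplasmic reticulum. Sdf2l1 (-1.84 ± 0.46), Dnajb11 (-0.88 ± 0.25) and Pdia3 (-0.60 ± 0.18), which help secreted proteins to fold, had the smallest p of these 7 (edgeR adjusted p = 0.0156, 0.0289 and 0.0310). Bag3 (-1.35 ± 0.21), Hspa4 (-0.37 ± 0.09), Hsp90ab1 (-0.42 ± 0.12) and Dnajb4 (-0.42 ± 0.12) were the other 4. Of the 7 genes named here, all but Bag3 lost the call under 1 to 7 of 18 alternatives. The count fell to 3 without female normal diet replicate 1 or 2 or male normal diet replicate 4, and to 4 without female or male normal diet replicate 3. On the high fat diet 10 of 68 were called, 14.7% against 20.4% of all genes, so the share lay below that of all genes. Of these, 3 were higher in females, Fkbp4 (0.54 ± 0.13), Cct4 (0.41 ± 0.09) and Ptges3 (0.27 ± 0.09). Another 7 were lower, among them Clpx (-0.87 ± 0.14), Dnaja3 (-0.54 ± 0.10), Dnajc3 (-0.78 ± 0.17) and Hspb8 (-0.41 ± 0.13). The calls of Ptges3 and Hspb8 were each lost under 10 of 19 alternatives (adjusted p up to 0.147 and 0.222). By library totals this split was 13 higher and 4 lower, on TPM it was 18 higher and 3 lower, and without male high fat diet replicate 4 only 5 were called. Without male high fat diet replicates 2 and 3, 4 were higher and 15 lower.

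The cold-inducible genes were set beside the chaperones. Cirbp, which encodes an RNA-binding protein made in the cold, rose in males (0.88 ± 0.18, edgeR adjusted p = 0.00442). Its level there was 7.62, 5.39, 5.49 and 5.20 CPM on the normal diet and 13.0, 11.6, 10.9 and 8.01 CPM on the high fat diet. In females Cirbp was at 6.31 ± 0.917 CPM on the normal diet and 6.08 ± 1.21 CPM on the high fat diet (-0.05 ± 0.18, and 0.15 by library totals). Rbm3, the other cold-inducible gene, fell in females from 52.4 ± 15.0 to 30.4 ± 8.60 CPM (-0.79 ± 0.23, edgeR adjusted p = 0.0342), with overlap, and its value in males was -0.53 ± 0.22 (adjusted p = 0.134). On the high fat diet both were lower in females than in males (Cirbp -0.84 ± 0.18 and Rbm3 -0.71 ± 0.23, edgeR adjusted p = 0.00376 and 0.0347). The difference of the diet changes was called for 0 of these 2 genes by edgeR, with 1 at an unadjusted p under 0.05, and for 1 by DESeq2. The diet call of Rbm3 in females was lost under 11 of 18 alternatives (adjusted p up to 0.120) and its sex call under 12 of 19 (up to 0.127).

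Other groups of genes that respond within hours moved with the diet as well. Of all tested genes, 5.74% were called higher and 5.76% lower in females, and 6.03% higher and 5.36% lower in males. Per1 stands on both the glucocorticoid and the clock list and counts in each. Of 8 glucocorticoid-induced genes, 6 fell in females and 4 in males, among them Fkbp5 (-1.42 ± 0.16 and -1.69 ± 0.16) and Tat (-1.81 ± 0.19 and -1.42 ± 0.19), and Fkbp5 itself binds HSP90. Of 9 tested clock genes, 2 rose and 4 fell in females, and 1 rose and 7 fell in males. Nr1d1, a repressor of the clock, rose in females (1.79 ± 0.21) and fell in males (-1.91 ± 0.22), and the difference between the sexes was called (3.71 ± 0.30, edgeR adjusted p = 5.54e-06). Of 7 tested immediate early genes, 5 rose in females and 3 in males, and Junb was called in both (1.49 ± 0.28 and 0.88 ± 0.28), in males with a call that was lost under 10 of 19 alternatives (adjusted p up to 0.135). The part of these genes, and of the hour and handling at collection, in the levels of the chaperones was not tested.

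Over 16 libraries, deviations of log2 CPM from the group mean were taken for each member. Among the 6 members called in males the 15 pairwise correlations had a median of 0.81, from 0.58 to 0.98, and Hspb1 correlated with these 6 at 0.61 to 0.82. The remaining 24 pairs had a median of -0.01 but were mixed. With these 6 and Hspb1, Hspd1 correlated at 0.34 to 0.56, Hspe1 at -0.17 to 0.07 and Hsf1 at -0.51 to -0.10. Hsph1 and Hsp90aa1 made the closest pair (0.98), and Dnajb1 with Hsf1 the most opposed (-0.51). The mean deviation of all members was highest in male normal diet replicate 4 (0.47 on the log2 scale) and lowest in female high fat diet replicate 4 (-0.48), and the other 14 libraries lay between -0.27 and 0.26. The pairwise correlations were not computed without male normal diet replicate 4 or female high fat diet replicate 4. They share the libraries and their scaling and are given as a description.

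**Figure D4:**
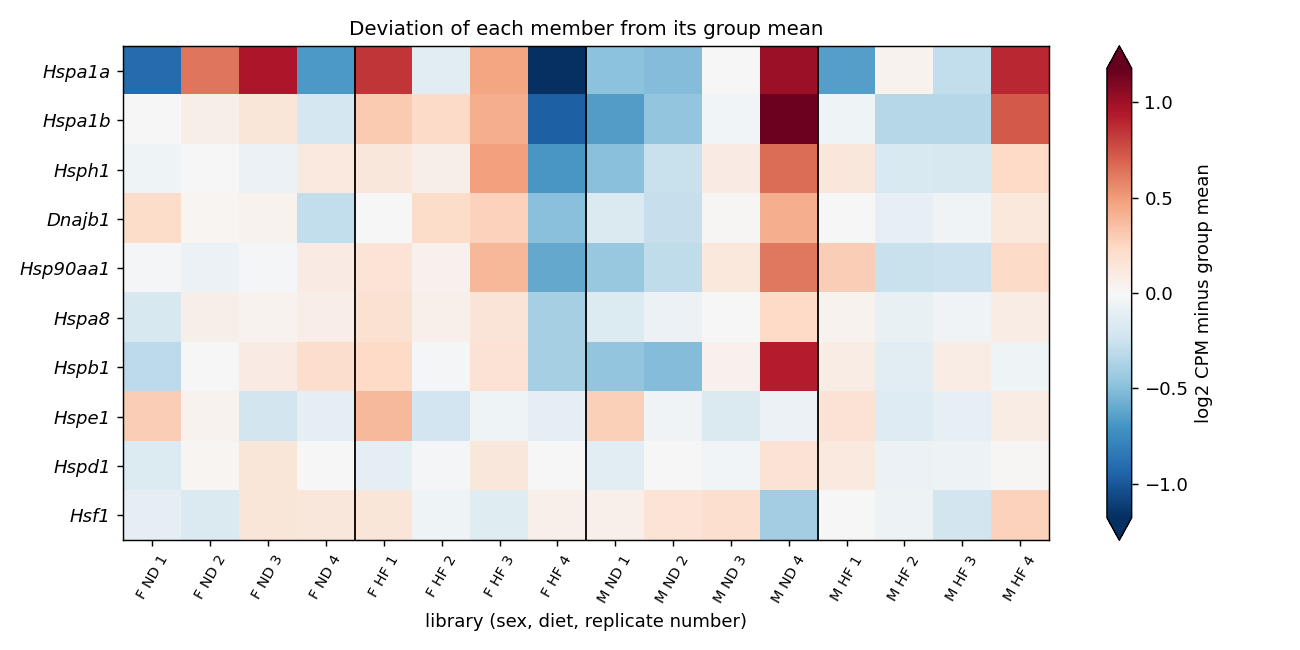
Deviation of each member (rows) from its group mean, as log2 CPM, in each of the 16 libraries (columns, with lines between groups). Male normal diet replicate 4 is red (higher) and female high fat diet replicate 4 is blue (lower) for most members, with mean deviations of 0.47 and -0.48, and Hsf1 in male normal diet replicate 4 goes the other way.

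The mean deviation of the members was set beside 7 other measures of the same 16 libraries, also as deviations from group means. Since it is a score over chosen members, the correlations are given as a description with no p. For the mean of the glucocorticoid-induced genes, Pearson's r was -0.63 and Spearman's rho -0.59, and r was -0.69 without the 2 libraries farthest from the median of that measure. With 1 library left out r ran from -0.74 to -0.49, and it was weakest without female high fat diet replicate 4. Of the 8 glucocorticoid-induced genes, 5 had negative and 3 positive correlations, from -0.68 to 0.15. Cirbp (r = -0.57, rho = -0.60) and Rbm3 (r = -0.51, rho = -0.52) also had negative values, with r at -0.44 for both without the 2 farthest libraries. For immediate early genes, library total, mitochondrial share and albumin share r lay between -0.35 and 0.20.

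Of the 7647 genes whose log2 CPM averaged 3 or more, those whose deviations were most like the mean of the members over the 16 libraries were Ppid (r = 0.88), Stip1 (0.85), Ahsa2 (0.84), Hsp90ab1 (0.83) and Irgq (0.81). Those most opposed were Agxt2 (-0.87), Birc3 (-0.84) and Tmem86b (-0.81). Ppid, Stip1 and Hsp90ab1 stand on the list of HSP90 and its co-chaperones above. With the nearly alike male libraries averaged, Ppid stood at 0.89 and Agxt2 at -0.87.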

How the data were processed

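RNA was measured by poly(A) RNA sequencing of 16 whole liver samples, 4 in each of 4 groups of sex and diet, all labelled with the same batch number. The authors deposited, per the file headers, expected counts and TPM (length-normalized transcript shares) per gene and library as RSEM writes them, and the submitters' processing notes name STAR, RSEM and the genome build GRCm39. The strand setting is not given in the sources used here. Of the entries, 4.89% were not whole, and expected counts were rounded. Gene symbols, taken from the GENCODE M21 annotation on gene identifiers, matched 51487 genes with 98.97% of counts. No other gene coordinates are printed, since that annotation is on GRCm38. There were 0 columns of other samples.

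Counts were filtered with filterByExpr over the 4 groups (99.94% of counts kept), scaled by TMM and fitted in edgeR 4.0.16 (R 4.3.3) with the robust quasi-likelihood test, 1 mean per group and all 16 libraries. The comparisons were diet within each sex, the difference of those changes, and sex on each diet, with Benjamini-Hochberg adjustment over 14781 genes and a threshold of 0.05. The code was tested on simulated data. Library totals of 22228115 to 41420589 set the counting error, and the fitted SE holds it. Within-group deviations used log2 CPM with a prior count of 2. Promoter windows came from the RefSeq table on GRCm38.p6.

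The members and all gene lists were chosen with earlier results of these data known. Outside the members, up to 3 called genes with the smallest p per list and comparison were named, with Cirbp and Rbm3, then the 5 genes most like and 3 most unlike the members. Chordc1's promoter was picked after its values were seen. Alternatives were DESeq2 1.42.0, its size factors, library totals, no filter, limma 3.58.1 on log2(TPM + 1) and log2(TPM + 0.1), only the groups compared, a replicate block, male high fat diet replicates 2 and 3 averaged, both Hspa1 copies summed, each library left out, and, chosen after seeing the data, both of those male libraries left out.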

Additional observations from a re-analysis of the deposited data

Results flagged for a closer look

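Libraries that stood apart from the other 3 of their group by Dixon's test at the 95% level numbered 6 among 80 groups of 4 (the 10 members and 10 other genes in 4 groups each), and chance marks about 1 group in 20. Hspa8 stood at 1305 CPM in female normal diet replicate 1, below the others of that group. Stip1 was at 75.9 CPM in female normal diet replicate 4 and Cct7 at 86.7 CPM in female high fat diet replicate 1, each above the rest. In males on the normal diet, Cirbp was high in replicate 1 (7.62 CPM) and Dnajb6 low in replicate 2 (119.5 CPM). Hspa2 was high in male high fat diet replicate 4 (1.68 CPM).

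Among the 10 members and the 10 other genes whose levels are given here, the diet change differed between the sexes by the test of the difference itself for 3. Over all tested genes 0.677% did. The members were chosen with results known, and the other genes, apart from Cirbp and Rbm3, were named for a call in these data. The count is therefore not comparable with that share, and nothing is read from it. The female minus male log2 change was 1.85 for Hsph1 and 0.91 for Hspa8, which are members and are described only, and -1.03 for Clpx.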

How the results depend on the processing

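For single genes, 2122 of 2430 alternative values kept their direction and their side of the threshold; 255 lost the call, 27 gained one and 26 changed sign. The cause of the changes was not tested, apart from the fewer genes or libraries that some alternatives hold. The called members were 2 in females with DESeq2 and 2 with only the groups compared. For the difference of the diet changes they were 5 with DESeq2, 5 on log2(TPM + 1), 1 when male high fat diet replicates 2 and 3 were averaged, 0 without those, and 1 to 4 with 1 library left out. On the high fat diet between the sexes they were 1 with no filter, 1 without male high fat diet replicates 2 and 3, and 1 to 2 with 1 library left out.

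Called among the other chaperones in females were 6 by library totals, 7 on log2(TPM + 1), 7 on log2(TPM + 0.1) and 3 to 12 with 1 library left out. In males they were 13 by library totals, 12 with no filter, 14 on log2(TPM + 1), 15 on log2(TPM + 0.1), 15 with replicates 2 and 3 averaged, 10 without them and 12 to 27 with 1 library left out. For the difference they were 3 with DESeq2, 3 by library totals, 0 without male high fat diet replicates 2 and 3 and 0 to 2 with 1 library left out (0 without female normal diet replicate 2, 2 without female high fat diet replicate 4, and 2 without replicate 1 of the normal diet males). Between the sexes on the normal diet they were 4 with no filter, 6 on both TPM scales and 3 to 12 with 1 library left out. On the high fat diet they were 16 with DESeq2, 17 by library totals, 21 on both TPM scales, 5 with only the groups compared, 19 without male high fat diet replicates 2 and 3 and 5 to 12 with 1 library left out.

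Small values changed sign. In females, by library totals, log2(TPM + 1) and log2(TPM + 0.1), Hspb1 was 0.127, 0.1465 and 0.1604, Hsf1 0.0542, 0.0817 and 0.1032, and Cirbp 0.1471, 0.1562 and 0.1723, and Hspa8 was 0.0384 and 0.0385 on the TPM scales. With 1 library left out Hspb1 ran from -0.15 to 0.0606 and Cirbp from -0.13 to 0.0801. For the difference, Hspd1 was 0.0236 by library totals and 0.0910 and 0.0912 on the TPM scales, Hspe1 was -0.0016 without male high fat diet replicates 2 and 3 and -0.0365 to 0.2378 with 1 library left out, and Hspb1 ran from -0.0064 to 0.5857. On the high fat diet, Hsf1 between the sexes was -0.0187 with replicates 2 and 3 averaged, -0.0930 without them and -0.0441 to 0.138 with 1 library left out. Of the relations across libraries, that with the mitochondrial share was 0.0121 with replicates 2 and 3 averaged and -0.3524 to 0.0332 with 1 library left out, that with library total -0.0847 to 0.36, and that with glucocorticoid-induced genes -0.7373 to -0.4906.

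Deviations of same-numbered libraries correlated at -0.16 to 0.18, and the closest library of another number gave -0.04 to 0.19. Such weak values cannot settle whether the numbers pair the libraries, and the main fit used no pairing. With the replicate block, 7 members were called in males (Hspe1 added) and 0 for the difference (Hsph1 adjusted p = 0.0511, Hspa8 0.0534), and the counts of the other chaperones stayed within 1.5 times. Hspa1a in females rests on few counts, which limits its change.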
